A study of Mus musculus with 2 samples.

Results

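Ribosomal proteins and translation factors were compared between the cerebral cortex of control mice and that of mice with a conditional double knockout of the presenilins (PS cDKO). The members were all probe sets that the platform annotation paired with exactly 1 gene symbol starting with Rpl, Rps, Eif or Eef. The S6 kinase genes (Rps6k) and the genes Eif2s3x and Eif2s3y were left out. This gave 113 probe sets of 82 genes, out of 12418 probe sets on the array and 8251 genes with an unambiguous symbol. By symbol, 17 genes belonged to the large ribosomal subunit, 18 to the small subunit, 39 to the initiation factors and 8 to the elongation factors. Total RNA was hybridised to 1 oligonucleotide array per genotype, both from mice aged 6 months. Presenilins carry the active site of γ-secretase, a protease that cuts proteins within the membrane. The labels do not give the alleles, the promoter that drove the deletion, the strain or genotype of the controls, or whether an array held RNA of 1 mouse or of a pool. With 1 array per genotype there was no replicate check. Differences below are sizes on these arrays, with no p-value, and they cannot be set against variation between animals.

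The ribosome is built from a small subunit, which decodes the mRNA, and a large subunit, which forms the peptide bond. Initiation factors bring the initiator tRNA, the mRNA cap and the small subunit together, and elongation factors deliver aminoacyl-tRNAs and move the ribosome along the mRNA. In neurons this machinery also works in dendrites, where local protein synthesis supports synaptic plasticity. The mRNAs of ribosomal proteins and of several elongation factors are known for a 5′ terminal oligopyrimidine (TOP) tract, a C at the cap followed by C or T bases, through which mTOR signalling controls their translation.

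A TOP-like start was looked for in the RefSeq promoter windows (GRCm38.p6, 250 bases before to 50 after each annotated start), which held 67 of the 82 member genes. It was defined as a C followed by at least 4 bases that are each C or T, read on the gene's strand and beginning within 5 bases of the annotated start. Where several runs began in that range the longest was taken. A run was counted from a C within the range, so it can be the end of a longer pyrimidine stretch, as in Rpl7a. Only the printed strand was searched, and for no other motif. Of the 28 ribosomal protein genes with a window, 11 (39.3%) held such a start, against 23.6% of the 6572 array genes with a window and 21.2% of the 27025 genes of the whole promoter table. By promoter, these were 12 of 37 (32.4%), 19.5% of 8408 and 18.3% of 32851. Initiation factors had it in 9 of 34 genes and elongation factors in 1 of 5. The windows below are shown because they hold runs of 8 or more bases in measured ribosomal protein genes and in Eef1a1, with Eif3f for the longest run among initiation factors. Each extends from 20 bases before to 20 after the annotated start, 5′ to 3′, with the run in capitals.
Rpl7a (chr2:26910787-26910827, plus strand): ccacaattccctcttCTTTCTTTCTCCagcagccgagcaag
Rpl13a (chr7:45128725-45128765, minus strand): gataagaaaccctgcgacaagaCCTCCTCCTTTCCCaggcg
Rps10 (chr17:27635224-27635264, minus strand): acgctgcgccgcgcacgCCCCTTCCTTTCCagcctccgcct
Rps18 (chr17:33955645-33955685, minus strand): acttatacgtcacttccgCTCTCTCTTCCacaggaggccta
Rps24 (chr14:24490658-24490698, plus strand): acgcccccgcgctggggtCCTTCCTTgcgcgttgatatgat
Rps27 (chr3:90213628-90213668, minus strand): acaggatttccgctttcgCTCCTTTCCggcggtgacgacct
Eef1a1 (chr9:78481704-78481744, minus strand): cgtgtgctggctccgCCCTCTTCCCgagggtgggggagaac
Eif3f (chr7:108934395-108934435, plus strand): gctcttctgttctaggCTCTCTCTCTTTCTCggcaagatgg
A match describes the letters at an annotated start and is not evidence of a start site in cortex. The 8 genes differed in their array values: Rps10 was 1.36-fold and Rps18 1.23-fold lower in the PS cDKO, whereas Rps27 was 1.06-fold lower and Eif3f 1.13-fold higher. Among the measured ribosomal protein genes that had a window, the median log2 ratio was -0.20 for the 9 with a TOP-like start and -0.26 for the 16 without one. A gene without a match at its annotated start can still have a TOP tract. This split therefore does not compare TOP mRNAs with others.

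The deposited intensities had medians of 300 (control) and 305 (PS cDKO). Log2 ratios are PS cDKO over control throughout, after the PS cDKO values were multiplied by 1.02 so that brighter probe sets had a median ratio of 1. Intensities in the text are as deposited. Scaled values below a floor of 232 were set to that floor. A gene at the floor on 1 array has only a bound, and a gene below it on both has no ratio. The presenilin gene Psen2 read 105 and 94.9, below the floor on both arrays, and so gave no check of the genotype. Of the markers checked, 9 of 9 measured microglial genes were higher in the PS cDKO, and all 12 on the array summed to 4746 in control and 7330 in PS cDKO cortex; Aif1, Fcer1g and Lyz2 were below the floor on both arrays. The astrocyte list summed to 13194 and 14375, with 6 of 8 genes higher. Gfap, the filament protein of reactive astrocytes, was 4.68-fold higher (458 and 2095), and without it the list summed to 12736 and 12279. The neuronal list summed to 16716 and 14074, with 7 of 10 measured genes lower. Of these, Map2 passed the floor only on the control array, and without it 6 of 9 were lower; Gad2 was below the floor on both arrays. Oligodendrocyte markers summed to 4739 and 4664, with 3 of 4 measured genes lower (Cnp and Mog below the floor). Of these 4, Mobp was 1.36-fold lower and Mbp 1.12-fold higher. Endothelial markers summed to 1574 and 1603, with 1 of 3 measured genes lower (Cdh5, Pecam1 and Tek below the floor). The blood genes Hba-a1 and Alas2, 2 of 2 lower, summed to 2360 and 1731. The part of these shifts in the values of the translation genes was not tested. In bulk tissue, fewer cells of a type and less RNA per cell cannot be told apart.

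Most measured ribosomal proteins and elongation factors were lower in the PS cDKO. With the scaling described above, initiation factors were lower by less. After the lowess fit given below, however, their median (-0.11) was below that of the large subunit (-0.098). A ratio was obtained for 67 of the 82 genes, of which 62 were measured on each array and 5 gave bounds. Of the 67, 50 were lower at any size and 17 higher, while 48.1% of all 5885 measured genes were lower and 51.9% higher. At 1.2-fold or more, 20 were lower and 2 higher, against 12.9% and 12.5% of all measured genes. Without the bounds, these counts were 48, 14, 20 and 1 of 62 genes. At 1.5-fold or more, 2 were lower (Rps19 and Rpl37a) and 0 higher, where 0.816% and 1.12% of all measured genes passed. After a lowess fit on signal neither reached 1.5-fold lower (log2 ratios of -0.5847 and -0.494), while Eef1b2 did (-0.635). The same held under quantile normalization. The median log2 ratio was -0.22 over 14 large subunit genes, -0.27 over 15 small subunit genes, -0.08 over 32 initiation factors and -0.30 over 6 elongation factors, beside 0.01 over all measured genes. With the dependence of the ratio on signal removed by a lowess curve, these medians were -0.098, -0.18, -0.11 and -0.16, and 13 of 67 genes (19.4%) were at least 1.2-fold lower, against 12.7% of all measured genes in that setting. With no floor, where 82 genes had a value, they were -0.11, -0.17, -0.021 and -0.26.

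**Figure D1:**
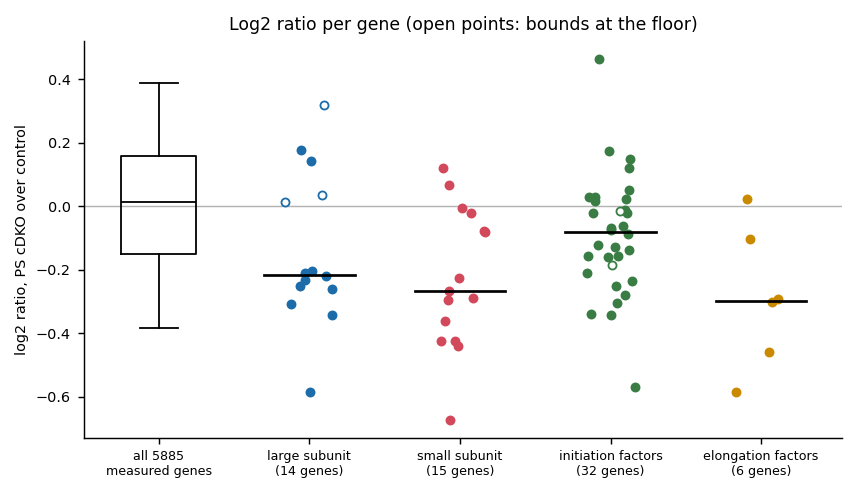
Log2 ratio of PS cDKO over control (vertical axis) for each measured gene of the 4 classes, with a line at each class median; open points are bounds at the floor. The box shows the quartiles of all 5885 measured genes, with its median line and whiskers at the 5th and 95th percentiles. The medians lie at -0.22, -0.27, -0.08 and -0.30 from left to right, beside 0.01 for all genes.

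In the small subunit, 13 of 15 measured genes were lower and 8 were at least 1.2-fold lower, with 0 at least 1.2-fold higher. The share at least 1.2-fold lower was 53.3%, against 12.9% of all measured genes. Most genes of the subunit were bright, and among genes that were no members it was 19.4% at a signal of 1000 to 2000 and 20.6% above that. Rps19, a protein needed for maturation of the small subunit and mutated in Diamond-Blackfan anaemia, read 2483 in control cortex and 1522 in PS cDKO cortex. It was 1.59-fold lower, the lowest of all members in the main setting, and 28 of the 5885 measured genes, itself included, were as low. Over the alternatives tried its log2 ratio stayed between -0.71 and -0.58. Eef1b2 was lower than Rps19 after the lowess fit and after quantile normalization, with a log2 ratio of -0.64 in both. Rps10, at the head of the subunit, read 1685 in control and 1214 in PS cDKO cortex and was 1.36-fold lower. Rps7 read 2840 and 2065, a level 1.34-fold lower. Both thus lay below the control by an amount that 178 and 208 measured genes reached.

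Rps28 was measured by 3 probe sets above the floor. Control readings of 3767, 3634 and 415 stood against PS cDKO readings of 3052, 2779 and 257, which were 1.21-fold, 1.28-fold and 1.57-fold lower. All 3 pointed the same way, and the gene value was 1.34-fold lower. Rps3, which lines the mRNA entry channel, read 2780 in control and 2113 in PS cDKO cortex, a 1.29-fold difference. Rps18 read 1646 and 1310, and Rps3a1 2534 and 2028, which were 1.23-fold and 1.22-fold lower. In both the PS cDKO reading was the lower. Rpsa, also known as the laminin receptor, read 2346 and 1902, a log2 ratio of -0.27. Rps15 was 1.17-fold lower (455 against 380).

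The remaining small subunit genes lay near the control. Rps27 and its paralog Rps27l read 716 and 786 in the control and 662 and 728 in the PS cDKO, and both were lower by less than 1.1-fold, at 1.06-fold and 1.05-fold. Rps13 was the highest of the subunit, with 3547 in control and 3766 in PS cDKO cortex, 1.09-fold of control, and higher in the 9 alternatives that gave it a value (log2 ratio 0.09 to 0.27). Its only probe set has a suffixed identifier, so it has no value once such probe sets are left out. Rps4x, the X-linked form of its protein, had a gene value of 0.07 on the log2 scale from 2 probe sets of opposite sign. Rps29 and Rps24 had values of -0.0073 and -0.02. Rps4x, Rps29 and Rps24 changed sign with the setting, from -0.10 to 0.16, from -0.05 to 0.03 and from -0.24 to 0.19.

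In the large subunit, 9 of 14 measured genes were lower, 3 by at least 1.2-fold, and 1 was at least 1.2-fold higher. The share at least 1.2-fold lower was 21.4%, against 12.9% of all measured genes. Among genes that were no members it was 19.4% at a signal of 1000 to 2000 and 20.6% above that. Rpl37a read 2523 in control and 1641 in PS cDKO cortex, a log2 ratio of -0.59 or 1.5-fold lower. After Rps19 it was the lowest member in the main setting, and its log2 ratio ran from -0.62 to -0.49 over the settings. Rpl8 read 2058 and 1586 (1.27-fold lower) and Rpl7a 954 and 752 (1.24-fold lower). Rpl41, one of the shortest proteins known, read 6611 in control and 5383 in PS cDKO cortex, and it was just under 1.2-fold lower. After the lowess fit its log2 ratio was -0.063 in place of -0.26.

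A further 5 genes of the large subunit lay between 1.15-fold and 1.19-fold below the control. Rpl10a read 759 in control and 623 in PS cDKO cortex, Rpl6 2295 and 1937, and Rpl39, which lines the exit tunnel for the nascent peptide, 2981 and 2528. Rplp0, the base of the stalk that recruits translational GTPases, read 1672 and 1402 and was 1.17-fold lower. Rpl19 was 1.17-fold lower in its mean, but its 2 probe sets disagreed. The stalk partners Rplp1 and Rplp2 had no probe set with a single symbol in the annotation used.

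Rpl22 and Rpl7 were the large subunit genes above the floor on both arrays with higher values, at 1.13-fold and 1.10-fold of control. Rpl22 took either sign with the probe set used (log2 ratio -0.15 to 0.18), and Rpl7 read 1202 and 1199 on its brighter and 264 and 308 on its dimmer probe set. The other higher genes of the large subunit were bounds. Rpl39l, a paralog of Rpl39, read 224 in control and 282 in PS cDKO cortex and was at least 1.25-fold higher. Rpl13a (224 and 228) and Rpl32 (133 and 232) had bounds of 1.01-fold and 1.03-fold higher. With no floor Rpl32 had a log2 ratio of 0.83, and Rpl13a took either sign over the settings. These genes entered only through the array on which they were higher. Without the bounds, the median of the large subunit was -0.23 over 11 genes.

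**Figure D2:**
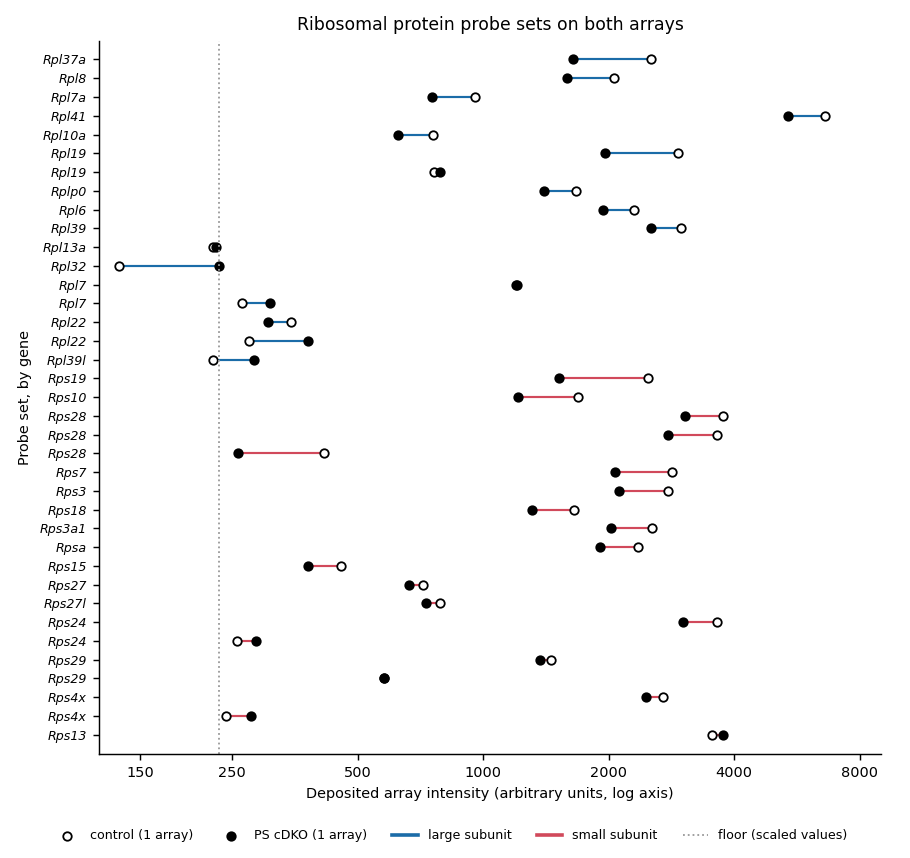
Deposited intensity (log axis, arbitrary units) of each ribosomal protein probe set with a ratio or a bound, on the control array (open circles) and the PS cDKO array (filled circles), ordered within each subunit by gene value. Lines join the 2 arrays, blue for the large and red for the small subunit, and the dotted line is the floor of 232. Rps19 and Rpl37a have the longest gaps toward lower PS cDKO intensity among single-probe-set genes.

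Among initiation factors 23 of 32 measured genes were lower and 9 higher. At 1.2-fold or more 5 were lower (15.6%), a share close to the 12.9% of all measured genes, and 1 was higher. Eif5, which triggers GTP hydrolysis by eIF2 at the start codon, read 774 in control and 509 in PS cDKO cortex, 1.49-fold lower. In the alternatives that gave it a value its log2 ratio was -0.60 to -0.57. At the other end Eif1a, which promotes scanning, read 256 and 345 and was 1.38-fold higher. Its X-linked relative Eif1ax read 343 and 301 and was 1.11-fold lower, so these related genes differed by 0.62 in log2 ratio on the same arrays. Each rested on 1 measured probe set, and the difference was 0.43 with the lower floor and 0.29 with no floor, when dimmer probe sets entered. Eif1b, a paralog of the start codon selection factor eIF1, read 962 and 790 and was 1.19-fold lower.

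The factors that handle initiator tRNA lay mostly below the control. All 3 measured subunits of eIF2B, the exchange factor that recharges eIF2 with GTP, were lower. Eif2b2 read 1436 in control and 1107 in PS cDKO cortex (1.27-fold lower), Eif2b5 419 and 348 (1.18-fold lower) and Eif2b4 259 and 240 (1.05-fold lower). Eif2s2, the β subunit of eIF2, read 350 and 321, 1.06-fold lower, and took either sign over the settings (log2 ratio -0.13 to 0.00076). Eif2a, a separate initiator tRNA-binding factor, read 716 and 576, 1.21-fold lower. Eif2d, which acts in recycling and initiation, was at least 1.01-fold lower, with a single probe set above the floor in the control only (234 against 207). With no floor its log2 ratio was 0.41 in the other direction, since a dimmer probe set then entered.

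Of the kinases that phosphorylate eIF2 under stress, Eif2ak1 (the haem-regulated kinase) read 487 in control and 518 in PS cDKO cortex, 1.09-fold higher. Eif2ak4 (GCN2, which senses uncharged tRNA) read 446 and 390, 1.12-fold lower, and Eif2ak3 (PERK, of the endoplasmic reticulum) read 263 and 220, at least 1.14-fold lower. Eif2ak3, like Eif2d, entered only through the control array, on which it was higher. None of these 3 kinases reached 1.2-fold, and Eif2ak2 (PKR) was below the floor on both arrays.

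Subunits of eIF3, the scaffold that binds the small subunit, ranged from -0.34 to 0.17 in log2 ratio, with 6 of 9 lower and a median of -0.13. Eif3k read 877 in control and 675 in PS cDKO cortex (1.27-fold lower) and Eif3m 664 and 526 (1.23-fold lower). Eif3f read 622 and 686 and was 1.13-fold higher. Eif3d, which can bind the mRNA cap, read 602 and 508 and was 1.16-fold lower. The core subunits Eif3b (750 and 666) and Eif3c (889 and 797) and the loosely bound Eif3j1 (293 and 262) had log2 ratios of -0.14, -0.12 and -0.13. Eif3e (249 and 247) and Eif3l (828 and 825) stood at 0.02 and 0.03. Over the settings Eif3b (-0.17 to 0.17), Eif3e (-0.06 to 0.11) and Eif3l (-0.0054 to 0.14) took either sign. Subunits of this one complex therefore lay on both sides of the control.

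The group that binds and unwinds the capped mRNA lay near the control, with a median log2 ratio of -0.02 over 6 measured genes and none past 1.2-fold. The RNA helicases Eif4a1 and Eif4a2 read 636 and 2377 in the control and 628 and 2305 in the PS cDKO, with log2 ratios of 0.01 and -0.01 whose signs changed with the scaling. Their cofactor Eif4h read 844 and 811, and the cap-binding paralog Eif4e2 737 and 710, both with a log2 ratio of -0.02. The cofactor Eif4b had 3 probe sets with log2 ratios of -0.08, -0.02 and 0.19, and its gene value of 0.03 ran from -0.05 to 0.14 over the settings. The scaffold Eif4g3 read 852 and 746, 1.12-fold lower, the lowest of the 6. The cap-binding protein Eif4e, the scaffold relative Eif4g2 and the inhibitor Eif4ebp1 were below the floor on both arrays. Eif4ebp2, the main eIF4E-binding repressor of the brain, had a gene value 1.04-fold of control, from probe sets that read 994 and 1111, and 636 and 582.

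The remaining 3 factors act around the joining of the subunits or after it. Eif5b, the GTPase that joins them, read 387 and 419, 1.11-fold of control. Eif5a, which eases the synthesis of difficult peptide stretches, read 1205 and 1123, 1.05-fold lower. Eif6, which keeps free large subunits apart from small ones, read 419 and 392, 1.04-fold lower.

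Elongation factors were lower in 5 of 6 measured genes, 4 of them by at least 1.2-fold (66.7%, against 12.9% of all measured genes). Among genes that were no members this share was 10.3% at a signal below 500, 19.4% at 1000 to 2000 and 20.6% above that. Eef1b2, part of the exchange complex that recharges eEF1A with GTP, read 363 in control and 236 in PS cDKO cortex, just under 1.5-fold lower. Its further probe set read 153 and 185, below the floor on both arrays. With that probe set counted, under the lower floor or no floor, the log2 ratio of the gene was -0.14 in place of -0.58. Eef1d, of the same complex, read 429 and 305, 1.37-fold lower. With a floor at the 60th percentile its log2 ratio was bounded at -0.091. Eef2, which translocates the ribosome, read 2024 and 1612, 1.23-fold lower, while its inhibitory kinase Eef2k read 308 and 306, 1.02-fold of control and of either sign depending on the scaling.

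The paralogs of eEF1A, which delivers aminoacyl-tRNA, differ in where they are made: Eef1a1 is widespread, and Eef1a2 is the form of mature neurons and muscle. Eef1a2 read 6310 in control and 4997 in PS cDKO cortex, 1.23-fold lower. Eef1a1 read 5035 and 4577, 1.07-fold lower, and after the lowess fit its log2 ratio was 0.074. The log2 ratio of Eef1a1 exceeded that of Eef1a2 by 0.20, which is no more than the SD of 0.21 for a single probe set given below. Under quantile normalization the difference was 0.32, above that SD. The SD is that of 1 probe set, and a difference between 2 probe sets has a wider spread.

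**Figure D3:**
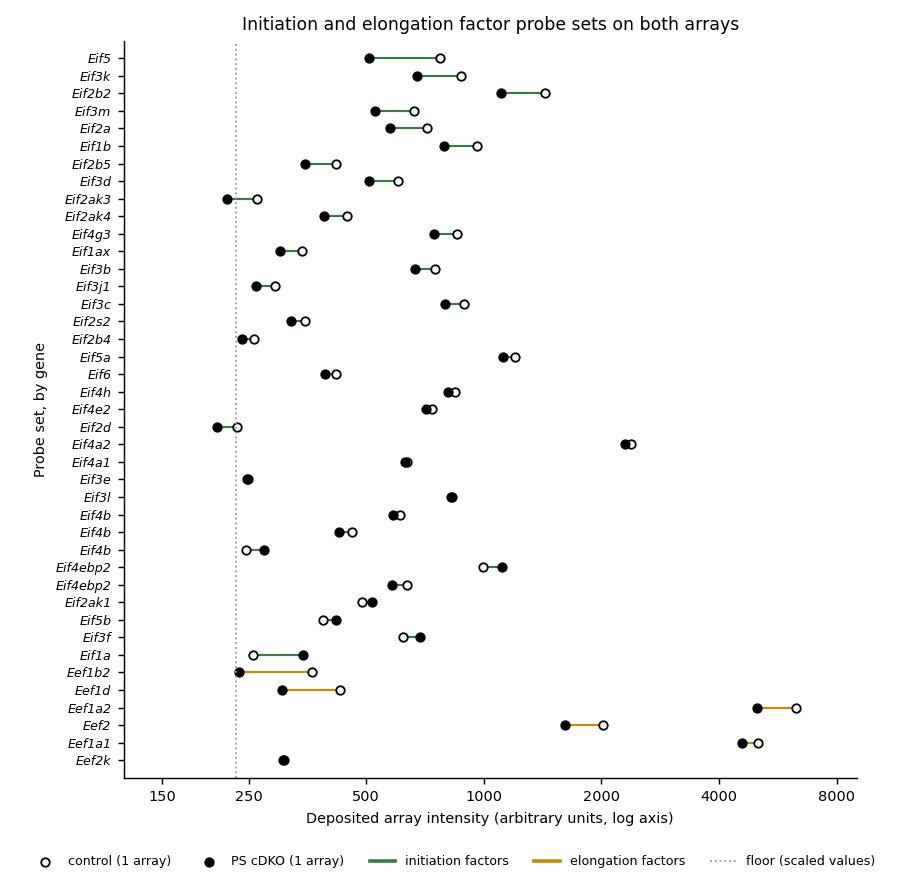
Deposited intensity (log axis, arbitrary units) of each initiation factor (green lines) and elongation factor (amber lines) probe set with a ratio or a bound, on the control array (open circles) and the PS cDKO array (filled circles). The dotted line is the floor of 232. Eif5, Eef1b2 and Eef1d show the widest gaps toward lower values, and Eif1a the widest toward a higher one.

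Brighter genes had lower ratios over the whole array, and most ribosomal proteins were bright. The lowess curve over all probe sets stood at 0.039 on the log2 scale at a signal of 256, at -0.030 at 1024 and at -0.16 at 4096. Among genes with a signal of 2000 or more, the 10 ribosomal proteins had a median log2 ratio of -0.28, and the 175 genes that were no members had one of -0.081. In that range 6 of the 10 ribosomal proteins and 36 of the 175 others (20.6%) were at least 1.2-fold lower. Between 1000 and 2000 the medians were -0.23 over 9 ribosomal proteins and -0.033 over 850 other genes. Below 500 the 5 ribosomal proteins, 3 of them bounds in the upward direction, had a median of 0.036 and the 2784 others one of 0.037. Between 500 and 1000 these medians were -0.08 over 5 ribosomal proteins and 0.0049 over 2009 others. The Eif and Eef genes had medians of -0.08 (16 genes), -0.13 (16), -0.29 (3) and -0.10 (3) from the dimmest to the brightest of these 4 ranges. In the brightest one theirs was close to the -0.081 of genes that were no members. These differences are descriptions of 2 arrays and were not tested.

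**Figure D4:**
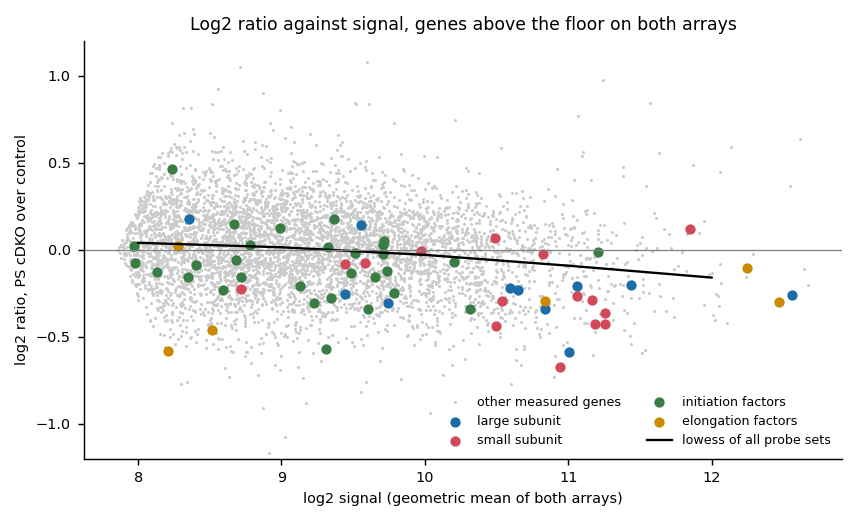
Log2 ratio of PS cDKO over control against log2 signal for genes above the floor on both arrays; members are coloured by class, other genes are grey and the line is the lowess curve. The vertical axis ends at a log2 ratio of 1.2 in either direction, so that the few genes beyond it are not drawn. The curve reaches -0.16 at a log2 signal of 12, and most red and blue points at a log2 signal above 10 lie below it.

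Repeated probe sets gave the only repeated measure of a member. Of 62 genes with a ratio that is no bound, 53 rested on 1 probe set and 9 on several. In 7 of those 9 the probe sets lay on both sides of 0, and Rpl7 and Rps28 were the exceptions. The brighter probe set of Rpl7 had a log2 ratio of 0.03 after the scaling, but its deposited readings (1202 and 1199) were slightly lower in the PS cDKO. Rpl19 read 2926 and 1960 on one probe set, 1.46-fold lower, and 764 and 789 on the other, with a log2 ratio of 0.08. Rpl22 read 274 and 380 (log2 ratio 0.51) and 347 and 305 (-0.15). Rps4x read 2698 and 2461 (-0.10) and 241 and 277 (0.23). Taking the 2 brightest probe sets of each gene, 6 of 9 pairs differed in sign, and in 5 of the 6 the brighter one was the lower. The SD of the log2 ratio for one probe set was 0.27 from these 9 pairs and 0.21 from 749 pairs over all measured genes, and 57.9% of those pairs had the same sign. This SD covers the disagreement of probe sets within the arrays and leaves out the spread between animals.

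**Figure D5:**
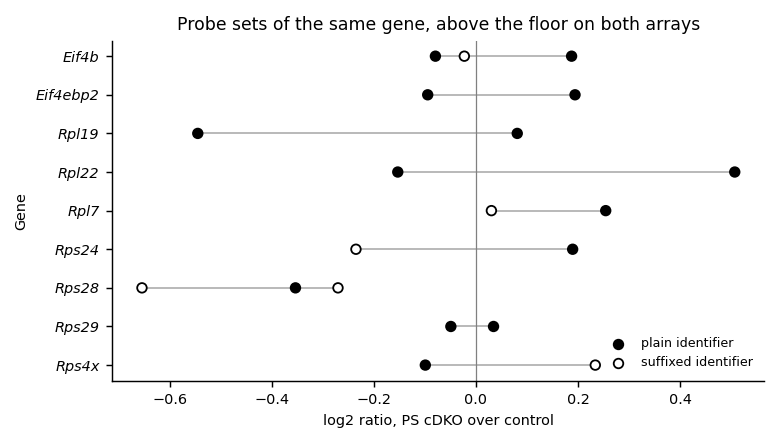
Log2 ratio of PS cDKO over control of every probe set with a full ratio for the 9 members with several of them; open points have a suffixed identifier, which can cross-react with related sequences. Rpl19 spans -0.54 to 0.08 and Rpl22 -0.15 to 0.51, while the points of Rps28 all lie below 0.

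Ribosomal protein genes have many near-identical processed pseudogenes, so a probe set may take signal from several loci. The value of Rps24 is uncertain for a further reason. Its brighter probe set (3637 against 3019) shares a database accession with a probe set named Rpl7, and without it Rps24 was 1.14-fold higher, at a log2 ratio of 0.19. The probe set named Rpl7 is the brighter one of that gene, and without it the log2 ratio of Rpl7 was 0.25. The accession behind Rpl7a is also paired with its neighbours Surf1 and Surf2. A further 39 probe sets carried several symbols, at least 1 of them starting with Rpl or Rps, and were no members. Of the 34 with a ratio or bound, 29 were lower, 16 by at least 1.2-fold and 0 by that much in the other direction, with a median log2 ratio of -0.24. The 37 measured ribosomal protein probe sets with 1 symbol had a median of -0.22, and 14 were at least 1.2-fold lower.

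In all, 15 member genes gave no ratio because each of their probe sets was below the floor on both arrays. In the ribosome these were Rpl35a, Rpl38, Rpl7l1, Rps14, Rps20 and Rps4l. Among factors they were Eif2ak2, Eif2b1, Eif3a, Eif4e, Eif4ebp1, Eif4enif1, Eif4g2, Eef1g and Eef1akmt1. A low signal of a probe set is not a low level of the gene.

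Other genes of protein synthesis were taken from lists by role. Mitochondrial ribosomal proteins, which make the ribosome of the organelle, were lower in 30 of 40 measured genes, with a median log2 ratio of -0.14. Of the 30, 6 passed the floor only on the control array, and without bounds 24 of 33 were lower. At 1.2-fold or more 5 of the 40 (12.5%) were lower, no larger a share than the 12.9% of all measured genes, and 2 were higher. Mrpl43 (348 against 255) and Mrps34 (648 against 490) were the lowest, at 1.33-fold and 1.29-fold, and Mrpl14 and Mrpl52 the highest, at 1.29-fold and 1.21-fold of control. Aminoacyl-tRNA synthetases and their scaffold proteins were lower in 11 of 16, with a median of -0.09, where 48.1% of all measured genes were lower. At 1.2-fold or more 1 of the 16 (6.25%) was lower and 1 higher, against 12.9% and 12.5% of all measured genes. Aimp1 and Gars had log2 ratios of -0.27 and -0.25, while Farsa and Sars were 1.14-fold and 1.23-fold higher. Ribosome biogenesis genes were split, 9 lower (Nhp2 as a bound) and 9 higher, with a median of -0.02. At 1.2-fold or more 2 (11.1%) were lower and 2 higher. The nucleolar protein Ncl read 1259 and 983 and was 1.25-fold lower, and Nhp2 was at least 1.29-fold lower, whereas Polr1b, a subunit of RNA polymerase I, was 1.23-fold and Utp3 1.38-fold higher.

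Release, recycling and RNA-binding partners had a median of -0.09, with 10 of 16 lower, where 48.1% of all measured genes were lower. At 1.2-fold or more 3 of the 16 (18.75%) were lower and 1 higher, against 12.9% and 12.5% of all measured genes. Abcf2 was 1.25-fold lower, and Pabpc1, the poly(A)-binding protein whose mRNA also has a TOP tract, read 1324 in control and 1034 in PS cDKO cortex and was likewise 1.25-fold lower. Naca, of the nascent chain complex, was 1.09-fold of control. Impact, a regulator of GCN2, read 292 and 589 and was 2.07-fold higher. In the list of mTOR, S6 kinase and eIF2 stress signalling 11 of 14 genes lay below the control (median -0.18). At 1.2-fold or more 3 of the 14 (21.4%) were lower and 1 higher, against the same shares of all measured genes. The kinases Akt2 (836 against 641) and Pdpk1 (476 against 373) were 1.27-fold and 1.25-fold lower. Trib3, a target of the stress factor ATF4, was 1.23-fold (318 and 383) and Mlst8, a subunit of mTOR complexes, 1.08-fold higher. Atf4 itself read 1163 and 998 and was 1.14-fold lower.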

How the data were processed

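The authors deposited linear intensities of 12418 probe sets for 1 control and 1 PS cDKO array. The sources used here do not give the software, summary method, background step or scaling behind them. Values below 0 occur (13 and 18), so a subtraction preceded deposit. No counts or detection calls were used, and the number of arrays limits the precision.

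Probe sets were named by a platform annotation that can be old: 10829 had 1 symbol, 396 several and 1193 none. All 82 member IDs were found in the RefSeq gene table, with unchanged symbols. The PS cDKO array was scaled to a median log2 ratio of 0 over probe sets above the median rank on both arrays (0.034 added). The floor was the 40th percentile of both arrays pooled. A gene's value was the mean log2 ratio of those probe sets that exceeded the floor on each array, otherwise a bound. This measured 5885 genes. Genes were counted at 1.2-fold, with 1.5-fold and any size as alternatives. No test was run.

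Named were the 5 lowest and 5 highest genes above the floor of each subunit and of the initiation factors, all measured elongation factors, all bounds, and genes set by role (stalk proteins, Rpsa, eEF1A and eIF4A paralogs, eIF4E and its partners, eIF2 kinases, Eif5a, Eif6), with the 2 lowest and 2 highest of each other list. Others named (such as Rps18, Rps27, Eif1b and Eif3d) were chosen after their values were seen. Members and lists were chosen with earlier results of these data known. The steps were tested on simulated data. Lowess curves came from statsmodels 0.14.6, arithmetic from numpy 2.4.6 and pandas 2.3.3, and plots from matplotlib 3.10.9, under Python 3.11.15.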

Additional observations from a re-analysis of the deposited data

How the results depend on the processing

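No replicate could be omitted. No paired analysis was possible because control and PS cDKO have 1 array each. Alternatives were the deposited scale, quantile normalization, lowess (span 0.3), a lower floor (20th percentile), a higher one (60th) or none, only the brightest probe set, no suffixed probe sets, the mean over genes, and other fold thresholds. Added after the data were seen were leaving out probe sets whose accession is also paired with another gene, and dropping bounds. All 4 class medians stayed below 0 in each of these. They moved by more than the SD of a probe set divided by the square root of the number of genes in 9 cases. For the large subunit these were the mean (-0.14), lowess (-0.098) and no floor (-0.11). For the small subunit they were lowess (-0.18) and no floor (-0.17). For initiation factors they were no floor (-0.021) and no suffixed probe sets (-0.12). For elongation factors they were lowess (-0.16) and the 60th percentile floor (-0.20). The 20 genes at least 1.2-fold lower became 13 after lowess, 2 at 1.5-fold and 50 at any size. Rps19 and Rpl37a, the 2 at 1.5-fold, no longer passed that threshold after lowess. The 2 at least 1.2-fold higher became 4 and 0 with the lower and higher floor, 8 with no floor, 1 without bounds, 0 at 1.5-fold and 17 at any size. On the deposited scale 25 members were at least 1.2-fold lower, beside 15.8% of all genes. The causes were not tested. Of the 67 measured members, 15 took both signs over the main setting and the 10 alternatives, as far as these gave a value (47 had one in all 10). None of the 15 was at least 1.2-fold from control in the main setting.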
